A study of Mus musculus with 92 samples.

Results

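The share of newly made RNA was measured gene by gene in mouse embryonic stem cells that received only the solvent DMSO. The members are the genes with at least 100 reads in each of 6 libraries of SLAM-seq, a method in which cells take up 4-thiouridine and later chemical treatment turns the incorporated base into a T-to-C change in the reads. Of 56953 gene intervals in the tables, 11221 met this rule, and 106 of them carry no gene symbol. The 6 libraries form 3 groups of 2, which are 6 of the 14 SLAM-seq libraries and of the 92 samples of the series. Every group is of the same strain (B6) and genotype, Gabpa dTAG/dTAG, in which both copies of the gene for the transcription factor GABPA carry a tag that allows the protein to be degraded. The groups differ in the time spent in DMSO, 1 h, 2 h or 12 h, and the 2 h group served as the control of both the 2 h and the 4 h degradation experiments. The cells grew with LIF and the kinase inhibitors PD0325901 and CHIR99021, 4-thiouridine was given at 500 µM, and libraries were made from the 3' ends of polyadenylated RNA. The sources used here do not say how long each group was labelled, so the labelling time and the time in DMSO cannot be told apart. The study calls its samples biological duplicates and names no clone, so every error below rests on 2 such samples per group of this line. The model used below fitted all 6 libraries together, so each error draws on the spread within all 3 groups and on that of other genes.

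A cell's RNA is a pool that is filled by transcription and emptied by decay. When the pool is steady, the part that was made within a given window is larger for RNAs that decay fast. Short-lived transcripts typically encode transcription factors, signalling feedback proteins and regulators of the cell cycle, and long-lived ones typically encode enzymes of energy metabolism, ribosomal proteins and parts of the cytoskeleton. In embryonic stem cells the pluripotency network sits between these classes, since it holds both fast-changing regulators and abundant, steady transcripts.

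Each library held 17156727 to 18791688 reads in gene intervals, of which the members took 95.7% to 97%. Reads with a conversion made up 5.44% and 6.08% in the 1 h group, 10.4% and 11.3% in the 2 h group, and 14.1% and 14% in the 12 h group. No library without 4-thiouridine was analysed here, so the part of these shares that comes from sequencing error or from differences to the reference genome was not measured. The 8 markers listed for embryonic stem cells were all members, with a summed level of 7007 to 14492 CPM (counts scaled to a common total). Of the markers of feeder fibroblasts, endoderm, neural and mesodermal cells, 0 were members, and their summed levels stayed between 1.28 and 15.9 CPM, with no marker at 0 in all libraries. In bulk RNA, fewer cells of a type and less RNA per cell cannot be told apart.

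The share of a gene is its number of converted reads divided by all its reads, in percent. The median gene had a share of 5.83% and 6.26% in the 2 libraries of the 1 h group, 13.4% and 13.9% in the 2 h group, and 16.5% and 16.3% in the 12 h group. Genes spread widely around this middle in every library. In the first 1 h library the lowest 10% of genes lay at or below 1.62% and the highest 10% at or above 16.4%, a ratio of 10.1, and in the other libraries this ratio was 6.44 to 10.5. The share was higher in both 2 h libraries than in both 1 h libraries for 9726 genes (86.7%), higher in both 12 h than in both 1 h libraries for 10344 genes (92.2%), and higher in both 12 h than in both 2 h libraries for 7165 genes (63.9%). Replicates ranked the genes alike, with Spearman correlations across genes of 0.928 to 0.966 within groups and 0.813 to 0.923 between groups. Among genes whose lowest library had 100 to 109 reads, 324 in all, the median share was 7.27% and 18.5% in the first 1 h and the first 12 h library. Among the 382 genes just outside the rule, with 90 to 99 reads, it was 7.67% and 17.6%.

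**Figure D1:**
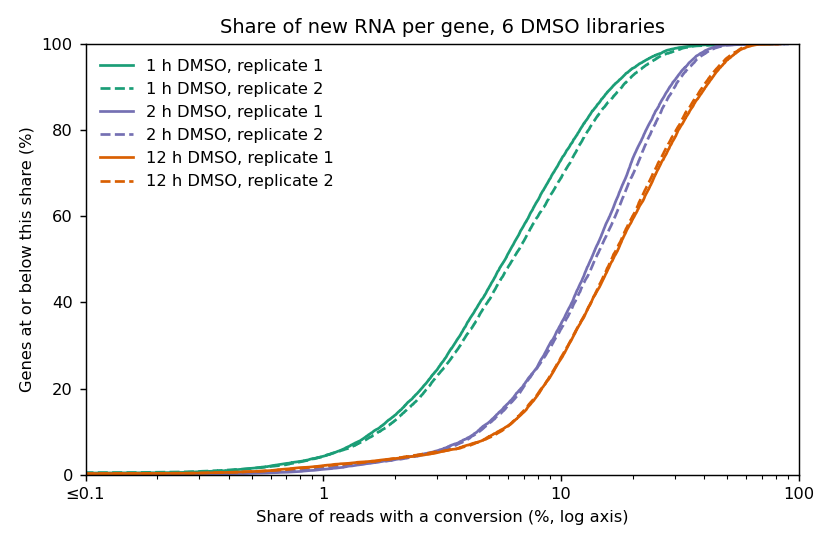
Cumulative share of the 11221 genes (y axis, percent of genes) against the share of reads with a conversion (x axis, percent, log axis) in each of 6 DMSO libraries, with 1 line per library. The median gene moves from 5.83% and 6.26% in the 1 h group to 16.5% and 16.3% in the 12 h group, and the 2 lines of each group run close together.

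To compare genes within a group, each gene's odds of a converted read were set against those of the median gene. This relative share is a log2 odds ratio, with 0 for the median gene, and edgeR tested whether it lay beyond 1.5-fold odds in either direction with Benjamini-Hochberg adjusted p under 0.05. In the 1 h group 2995 genes (26.7%) were called above the median gene and 3039 (27.1%) below. In the 2 h group the counts were 2604 (23.2%) and 2875 (25.6%), and in the 12 h group 3176 (28.3%) and 3069 (27.4%). Above in all 3 groups were 1880 genes (16.8%), and below in all 3 groups 2145 genes (19.1%). In all, 17 genes (0.152%) were called above in 1 group and below in another, and 3324 (29.6%) were called in no group. These percentages are the background against which the counts of the gene groups below can be read.

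**Figure D2:**
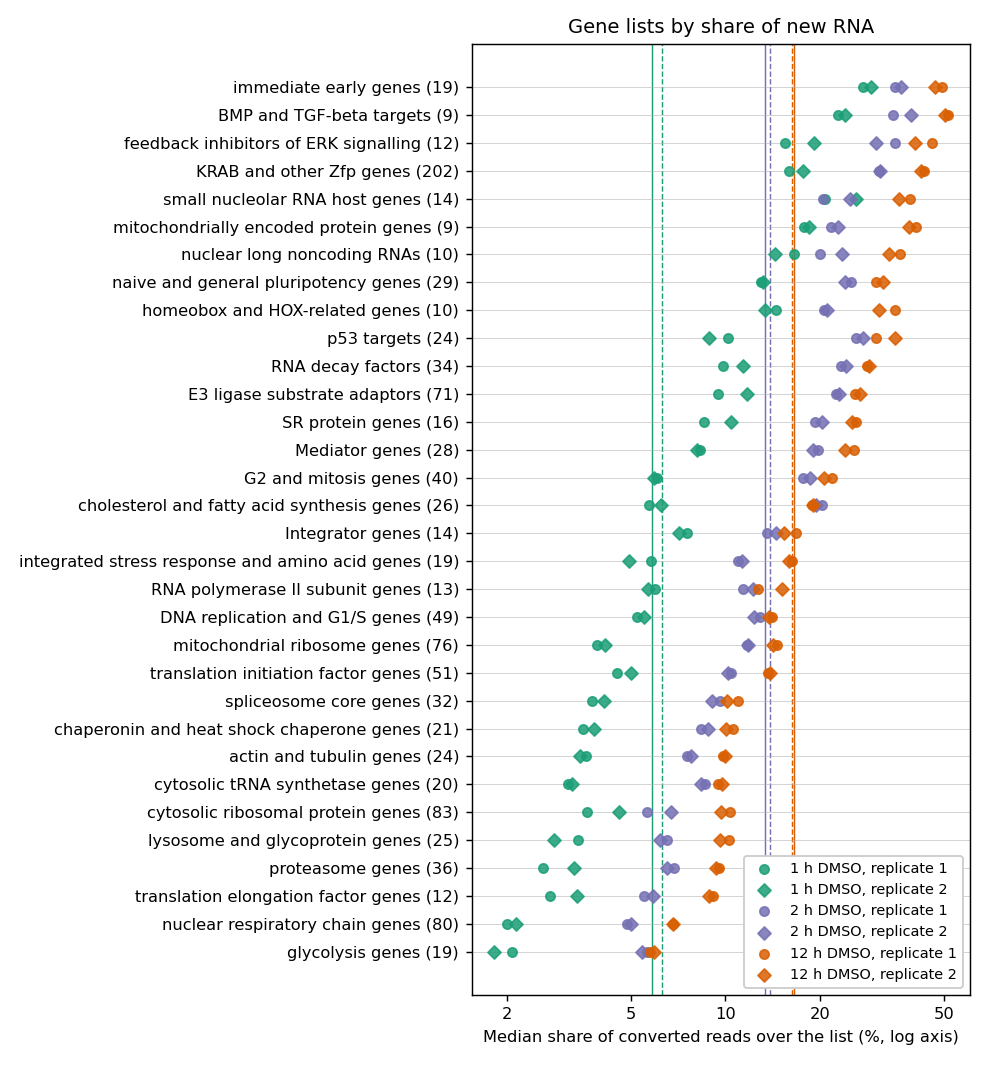
Median share of converted reads over the members of each gene list (x axis, percent, log axis), with the number of members in brackets, in each of 6 DMSO libraries; vertical lines mark the median of all 11221 genes in each library. Immediate early genes run from 27.5% in a 1 h library to 49.2% in a 12 h library, and nuclear respiratory chain genes from 2.01% to 6.8%.

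Immediate early genes, which encode transcription factors and signalling regulators that respond to growth signals within minutes, had high shares of new RNA. Of 35 listed genes 19 were members, and their median share was 27.5% and 29.2% in the 1 h group, 34.9% and 36.5% in the 2 h group and 49.2% and 46.9% in the 12 h group. Called above the median gene were 17, 15 and 17 of the 19, and 15 were above in all 3 groups. Fos, a subunit of the AP-1 transcription factor (chr12:85520664-85524047 in mm39), had 42.9% and 45.3% converted reads at 1 h, 46.4% and 47.4% at 2 h and 50.4% and 51.9% at 12 h, from 113 to 196 reads per library. All 6 values of Fos lay far above the median gene, with a relative share of 3.59 ± 0.212 (SE, edgeR, adjusted p = 3.55e-11) at 1 h. Sgk1, a kinase of growth factor signalling, had 30% and 32.5%, then 46.3% and 48.9%, then 62.6% and 60.9%, so its libraries did not overlap between any 2 groups. Of the 4 members not above in all 3 groups, Nr4a1 and Gadd45b missed the call at 2 h, and Jund and Junb, also AP-1 subunits, were above in no group. Jund had 3.36% and 4.89% at 1 h and 18.8% and 22.4% at 12 h and was called in no group. Junb had 6.8% and 3.6% at 2 h, where it was called below, and its interval overlaps that of a gene on the other strand, Prdx2, with more reads.

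Feedback inhibitors of ERK signalling, which damp the growth factor pathway that PD0325901 blocks, formed a second such group. Of 12 members, 10, 9 and 10 were called above the median gene in the 1 h, 2 h and 12 h groups and 0 below. Spry2, an inhibitor of receptor tyrosine kinase signalling (chr14:106129381-106134253), had 41.3% and 44% at 1 h, 52% and 54.8% at 2 h and 70% and 68.2% at 12 h. Its relative share was 3.51 ± 0.0609 (SE, edgeR, adjusted p = 6.39e-19) at 1 h. With predicted genes and genes without a symbol left out, it was among the 15 highest genes called above in all 3 groups. Dusp6, the phosphatase that inactivates ERK, had 33.8% and 35.8%, then 52.3% and 50.1%, then 62.4% and 63.4%. In both genes the libraries of the 3 groups did not overlap. Etv4, a transcription factor downstream of ERK, had 2.62% and 3.66% at 1 h and 16.2% and 11% at 12 h and was called in no group.

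Targets of BMP and TGF-beta signalling had a median share of 22.8% and 24.1% at 1 h and 51.3% and 50.3% at 12 h, and 8 of 9 members were above the median gene in all 3 groups. Smad7, an inhibitor of the same pathway, had 31.4% and 36.2% at 1 h and 56.7% and 55.6% at 12 h. Id3, which blocks differentiation factors by binding them, had 22% and 22.1%, then 30.4% and 33.4%, then 45.7% and 43.3%. The ninth member, Lefty2, a secreted inhibitor of NODAL, stood apart with 3.95% and 4.05% at 1 h, 18.2% and 16.9% at 2 h and 21.4% and 24.4% at 12 h, and was called in no group.

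The largest list with a high share was that of zinc finger genes named Zfp, many of which encode KRAB repressors of transposable elements. Of 202 members, 152, 153 and 164 were above the median gene in the 3 groups and 5, 5 and 6 below, with a median share of 16% and 17.7% at 1 h and 43% and 42.2% at 12 h. Zfp367 had 49.3% and 50.9%, then 49.3% and 52.2%, then 67.8% and 67.4%, so its share differed little between the 1 h and 2 h groups. Zfp572 was among the lowest of the list, with 1.52% and 1.86% at 1 h and 4.67% and 1.33% at 12 h.

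Pluripotency genes were split. Of 29 members, 18, 15 and 17 were above the median gene in the 3 groups and 5, 4 and 4 below, and the median share was 13% and 13.2% at 1 h and 30.3% and 31.8% at 12 h. Sox2, a core transcription factor of the network (chr3:34704554-34706610), had 32.6% and 33.7% at 1 h, 55.2% and 55.7% at 2 h and 65% and 64.6% at 12 h. Nanog, a core factor as well, was at 13.1% and 13.9% at 1 h and at 47.4% and 47.9% at 12 h. Pou5f1, which encodes OCT4, was at the other end with 1.49% and 1.49%, then 2.67% and 3.51%, then 3.79% and 4.24%, and its relative share was -2.11 ± 0.173 (SE, edgeR, adjusted p = 3.32e-08) at 1 h. Sox2 and Nanog were thus above and Pou5f1 below the median gene in all 3 groups. Read depth differed between these genes. Pou5f1 had 1407 to 4033 reads per library, against an RNA-seq level of 2032 and 2074 TPM, a level scaled for gene length, while Nanog had 4713 to 8925 reads at 334 and 331 TPM, of which up to 17.2% were multimapped. The interval of Pou5f1 overlaps Gm19553 on the other strand, which had 10516 reads over the 6 libraries, fewer than Pou5f1. Their part in the result was not tested.

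**Figure D3:**
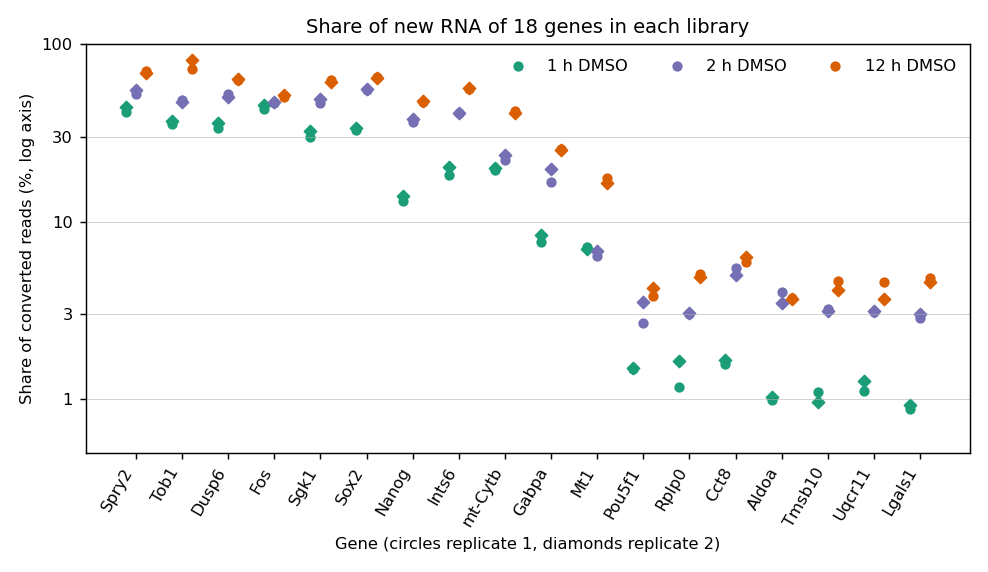
Share of converted reads (y axis, percent, log axis) of 18 named genes in each of 6 DMSO libraries, circles for replicate 1 and diamonds for replicate 2, coloured by group. Sox2 lies between 32.6% and 65% and Pou5f1 between 1.49% and 4.24%, and Mt1 differs little between the 1 h and 2 h groups but is higher in both 12 h libraries.

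Targets of p53, the transcription factor of the DNA damage response, were above the median gene in larger number at 12 h than at 1 h. Of 24 members, 12, 14 and 17 were above the median gene in the 1 h, 2 h and 12 h groups, and 3, 1 and 1 below. Eda2r, the ectodysplasin A2 receptor, had 20.6% and 23.8% at 1 h and 47.9% and 48.8% at 12 h. Bax, which permeabilizes the outer mitochondrial membrane in apoptosis, had 2.04% and 1.78% at 1 h and 10.3% and 9.6% at 12 h and was below the median gene in all 3 groups.

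Factors that degrade RNA, and receptors that pick proteins for degradation, also had many members above the median gene. Of 34 RNA decay factors, 17, 21 and 21 were above and 1, 0 and 1 below. Tob1, which recruits the deadenylase complex to transcripts, had 35.5% and 36.9% at 1 h, 48.4% and 47.1% at 2 h and 72.6% and 81.7% at 12 h, from 208 to 499 reads per library. Of 71 substrate adaptors of E3 ubiquitin ligases, 37, 34 and 38 were above and 7, 5 and 6 below. Kbtbd2, an adaptor of cullin ligases, had 35.1% and 37.8%, then 43.3% and 42.5%, then 61.8% and 62.3%. Regulators and members of the SR family of splicing proteins had a median share of 8.56% and 10.4% at 1 h, with 7, 7 and 10 of 16 above the median gene. Clk1, a kinase of SR proteins, had 20.6% and 29.1% at 1 h and 54.6% and 50.7% at 12 h.

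Genes that host small nucleolar RNAs in their introns had a high share at 1 h. Of 14 members, 10, 9 and 10 were above the median gene in the 3 groups, and the median share was 20.8% and 26.2% at 1 h, 20.4% and 25% at 2 h and 38.8% and 35.7% at 12 h. Snhg5 had 28% and 32.4%, then 36.7% and 35.8%, then 53.1% and 52%. Snhg1 had 30% and 34.3% at 1 h, 28.9% and 29.8% at 2 h and 51.5% and 49.1% at 12 h, so its 2 h libraries lay no higher than its 1 h libraries. None of the 14 intervals is free of overlap with another gene, since the small RNAs lie within them. Long noncoding RNAs of the nucleus had 7, 5 and 9 of 10 members above the median gene. Malat1, an abundant RNA of nuclear speckles, was called in no group, with 6.29% and 6.78% at 1 h and 17.8% and 17.4% at 12 h.

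Promoter sequences of 3 genes are shown because their lists lie at opposite ends of the share. Each runs from 250 bases before to 50 after the annotated start, from RefSeq on GRCm38.p6, a build other than that of the reads. Of the 11221 genes 7695 matched a promoter by symbol. Capitals mark TATAAA, the TATA box core, in Fos (chr12:85473640-85473939, plus strand, first base 33 before the start) and Snhg5 (chr9:88522848-88523147, minus strand, 23 before the start), and CCGGAAG, the core sequence that ETS factors such as GABPA bind, in Uqcr11 (chr10:80406772-80407071, minus strand, 66 before the start).
Fos: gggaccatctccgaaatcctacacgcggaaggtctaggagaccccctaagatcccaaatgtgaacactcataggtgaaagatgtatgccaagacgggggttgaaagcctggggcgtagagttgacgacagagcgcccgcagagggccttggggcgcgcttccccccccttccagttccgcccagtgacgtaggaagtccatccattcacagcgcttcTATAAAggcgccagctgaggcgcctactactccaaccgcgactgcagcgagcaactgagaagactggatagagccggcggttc
Snhg5: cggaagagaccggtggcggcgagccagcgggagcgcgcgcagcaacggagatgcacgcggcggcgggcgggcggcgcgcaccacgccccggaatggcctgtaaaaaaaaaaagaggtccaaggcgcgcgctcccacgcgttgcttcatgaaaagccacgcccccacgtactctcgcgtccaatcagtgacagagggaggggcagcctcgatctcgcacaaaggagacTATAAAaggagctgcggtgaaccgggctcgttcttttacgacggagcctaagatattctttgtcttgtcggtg
Uqcr11: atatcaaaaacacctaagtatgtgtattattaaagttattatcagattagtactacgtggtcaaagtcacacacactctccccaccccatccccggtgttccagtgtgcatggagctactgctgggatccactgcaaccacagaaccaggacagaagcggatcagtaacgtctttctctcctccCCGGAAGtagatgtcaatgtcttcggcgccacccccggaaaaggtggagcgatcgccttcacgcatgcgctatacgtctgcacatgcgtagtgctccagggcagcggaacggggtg
A gene can have several annotated promoters, and it was counted if any of them held the motif. TATAAA on either strand was in 8 of 15 matched immediate early genes (53.33%) and 5 of 13 host genes of small nucleolar RNAs (38.46%). It was in 646 of the 7695 matched genes (8.395%). Counted per single promoter, a different unit, it was in 13.62% of all 32851 RefSeq promoters. TGACGTCA, the full site of the CREB family, was in 4 of the 15 immediate early genes and in 3.925% of the matched genes. CCGGAAG was in 14 of 26 spliceosome genes (53.85%), 25 of 62 cytosolic ribosomal protein genes (40.32%) and 16 of 65 nuclear respiratory chain genes (24.62%, near the share over all matched genes), in 0 of 20 pluripotency genes and in 22.72% of the matched genes. Across genes without overlap or multimapping, CCGGAAG was about as frequent in the lowest 10% by share (41 of 205, 20%) as in the highest 10% (68 of 293, 23.21%). The CArG box (CCWWWWWWGG, with W for A or T) and GGGCGG were searched as well. The CArG box was in 0 of the 15 immediate early genes and in 1.494% of the matched genes. GGGCGG was in 11 of the 15 (73.33%) and in 69.41% of the matched genes. Both strands were searched for each motif, and none of TATAAA, TGACGTCA and CCGGAAG contains another. A match describes letters in these windows only.

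Subunits of the transcription machinery covered the middle of the range. Mediator, which links transcription factors to RNA polymerase II, had 9, 12 and 14 of 28 members above the median gene and 1, 0 and 0 below. Med7 had 23.5% and 21.9% at 1 h and 60.6% and 55.4% at 12 h. The 14 members of Integrator, an endonuclease complex that cleaves nascent RNA and that the series studies as a partner of GABPA, were spread over both sides, with 3, 5 and 4 above and 3, 1 and 3 below. Ints6 (chr14:62913779-62998618) had 18.3% and 20.3% at 1 h, 40.9% and 41% at 2 h and 55.8% and 56.3% at 12 h. Ints12 had 13.2% and 13.8% at 1 h and 42.6% and 46.7% at 12 h. Ints11, the catalytic subunit, had 1.59% and 2.67%, then 8.65% and 8.52%, then 6.35% and 6.48%, and was below the median gene at 1 h and 12 h. The libraries of Ints6 thus lay above those of Ints11 in every group. Of 13 RNA polymerase II subunits, 0, 0 and 1 were above and 3, 2 and 2 below, with Polr2e at 1.43% and 1.79% at 1 h and 7.97% and 7.58% at 12 h.

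The genes of GABP itself were all members. Gabpa (chr16:84631813-84660667) had 7.63% and 8.36% at 1 h, 16.6% and 19.8% at 2 h and 25.7% and 25.4% at 12 h. Its relative share was 0.80 ± 0.125 (SE, edgeR, adjusted p = 0.0262) at 12 h, and it was called in neither other group, where edgeR's adjusted p was 0.794 at 1 h and 0.727 at 2 h. Gabpb1 and Gabpb2 encode the partner subunits. Gabpb1 had 9.52% and 10.7%, then 31.9% and 30.9%, then 33.9% and 35.5%, and was above the median gene in all 3 groups. Gabpb2 had 27.4% and 26.1%, then 29.9% and 34.8%, then 39% and 38.3%, and was also above in all 3. The intervals of Gabpa and Gabpb1 overlap a gene on the other strand with more reads, Atp5j and Gm27003, and this part in their shares was not tested.

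Nuclear genes of the respiratory chain, which encode the subunits of oxidative phosphorylation that are imported into mitochondria, had low shares of new RNA. Their median share was 2.01% and 2.14% at 1 h, 4.83% and 4.99% at 2 h and 6.79% and 6.8% at 12 h. Of 80 members, 65, 68 and 69 were below the median gene in the 3 groups and 0 above, and 64 were below in all 3. Uqcr11, a small subunit of complex III (chr10:80238831-80242664), had 1.11% and 1.27%, then 3.08% and 3.14%, then 4.54% and 3.65%. Ndufa3, a subunit of complex I, had 1.11% and 1.01%, then 2.97% and 3.14%, then 4.89% and 4.27%. Genes of the mitochondrial ribosome were less low. Below the median gene were 32, 20 and 15 of 76 (42.1%, 26.3% and 19.7%, against 27.1%, 25.6% and 27.4% of all genes). The count below thus clearly exceeded this background at 1 h only. Above were 5, 8 and 10 (6.58%, 10.5% and 13.2%, against 26.7%, 23.2% and 28.3%).

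Messenger RNAs transcribed inside mitochondria stood apart from these partners. Of 9 members, 7, 6 and 8 were above the median gene and 1 below in each group, and the median share was 17.8% and 18.6% at 1 h, 21.8% and 22.9% at 2 h and 40.8% and 38.7% at 12 h. mt-Cytb, the cytochrome b of complex III, had 19.4% and 20%, then 22.3% and 23.8%, then 42% and 40.7%, from 24681 to 103379 reads. The gene below in all 3 groups was mt-Nd6, with 1.58% and 1.79% at 1 h and 4.14% and 4.23% at 12 h. It is the one on the other strand, and its interval overlaps mt-Nd5, which had more reads.

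Glycolysis genes, which encode the enzymes that break down glucose, were low too. Their median share was 2.09% and 1.83% at 1 h, 5.63% and 5.4% at 2 h and 5.76% and 5.9% at 12 h, and 12, 12 and 15 of 19 were below the median gene. Aldoa, the aldolase (chr7:126394406-126399923), had 0.994% and 1.03% at 1 h, 3.99% and 3.48% at 2 h and 3.7% and 3.65% at 12 h, with a relative share of -2.67 ± 0.0776 (SE, edgeR, adjusted p = 2.31e-15) at 1 h. Tpi1, triosephosphate isomerase, had 0.878% and 1.08%, then 4.82% and 5.4%, then 3.81% and 3.46%. In both genes the 12 h libraries lay no higher than the highest 2 h library. Hk2, a hexokinase and so the entry step of the pathway, was called in the other direction at 2 h and 12 h, with 22.8% and 23.2% and then 28.8% and 29.1%.

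Genes of protein synthesis and turnover lay low as well. Of 83 cytosolic ribosomal protein genes, 39, 58 and 44 were below the median gene and 14, 2 and 7 above, with a median share of 3.61% and 4.58% at 1 h, 5.63% and 6.69% at 2 h and 10.4% and 9.67% at 12 h. Rplp0, a protein of the ribosomal stalk (chr5:115697526-115701786), had 1.18% and 1.65%, then 3.01% and 3.04%, then 5.06% and 4.89%. Rps12 was at the other end, with 24.8% and 39.1%, then 22.2% and 31.6%, then 47% and 46%, from 367 to 646 reads per library. The 14 genes above at 1 h had a median level of 28.1 CPM, and the 39 below had 386, while their median RNA-seq levels were 2550 and 2990 TPM. The part of this depth in the result was not tested. With conversions per T in place of reads, the list's median relative share, set against that of all genes, went from -0.56 to -0.10 at 1 h and from -0.91 to -0.45 at 12 h. Translation elongation factors had 8, 9 and 8 of 12 below, and cytosolic tRNA synthetases 13, 11 and 17 of 20 below and 0 above. Proteasome genes had 26, 26 and 23 of 36 below and 0 above, with Psmd2 at 1.54% and 1.55% at 1 h and 4.91% and 6.32% at 12 h.

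Genes of the cytoskeleton, of lysosomes and of protein folding followed the same pattern. Of 24 actin and tubulin genes and their regulators, 13, 16 and 14 were below the median gene and 0 above. Tmsb10, which binds actin monomers, had 1.09% and 0.959% at 1 h, 3.22% and 3.15% at 2 h and 4.61% and 4.14% at 12 h. Of 25 lysosome and glycoprotein genes 14, 19 and 14 were below, and Lgals1, a galectin, had 0.883% and 0.932%, then 2.88% and 3.01%, then 4.83% and 4.58%. Of 21 chaperones 12, 12 and 12 were below and 1, 1 and 3 above. Cct8, a subunit of the chaperonin that folds actin and tubulin, had 1.57% and 1.66% at 1 h and 5.89% and 6.27% at 12 h, while Dnajb1, a stress-inducible cochaperone, had 14.5% and 13.8% at 1 h and 45.9% and 43.9% at 12 h. Core spliceosome genes were also low, with 16, 14 and 16 of 32 below, led by Snrpd2 at 1.54% and 1.7% at 1 h and 6.1% and 4.83% at 12 h.

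At the extremes, the share went with how the intervals lie in the genome. Of the 100 genes with the lowest mean relative share, 89 overlap a gene on the other strand that has as many reads or more, against 1622 of all 11221 genes (14.5%), and 81 are predicted genes or have no symbol, against 2126 of all genes. Of the 100 highest, 5 have such a partner and 12 are predicted or have no symbol. With predicted genes and genes without a symbol left out, Snx32, a sorting nexin, was among the 15 lowest genes called below in all groups. It had 0.415% and 0.42% at 1 h and 0.564% and 0.449% at 12 h, and 22906 reads in the first 1 h library. Its interval overlaps Cfl1, the actin-severing cofilin on the other strand, which had 22966 reads there and shares of 3.5% and 3.48% at 1 h and 7.82% and 8.56% at 12 h. Over the 6 libraries Cfl1 had 131277 reads, slightly fewer than Snx32, so Snx32 is not one of the 89. The RNA-seq level of Snx32 was only 0.98 and 1.05 TPM. The sources used here do not say whether reads were counted by strand, and without strand the reads of such partners cannot be told apart. Over the 4470 genes that overlap no other, 1139, 1053 and 1230 genes were above and 1155, 1097 and 1169 below in the 3 groups.

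A set chosen after these values were seen held genes with no overlap and at most 10% multimapped reads. Predicted genes, genes without a symbol and genes not called in the same direction in all 3 groups were left out of it. The highest relative shares in it included Spry2, Tob1, Dusp6, Fos and Sgk1, and 5 Zfp genes. Lypd6 and Adcy7 were there too, with RNA-seq levels of 0.58 and 0.76 TPM and of 0.54 and 0.38 TPM. Lowest were Itgb3, at 0.25 and 0.3 TPM, and Adamts6, at 0.37 and 0.24 TPM. Then came Vill, Arl5c and Mapk13, at 7.01 to 13.25 TPM. Gstp1, a detoxifying transferase, followed with 0.561% and 0.252% at 1 h and 3.74% and 5.03% at 12 h. Ech1, an enzyme of fatty acid oxidation, had 0.438% and 0.43%, then 3.24% and 4.42%, then 3.63% and 2.83%. Crabp1, which binds retinoic acid, had 0.475% and 0.602% at 1 h and 2.2% and 3.57% at 12 h. Some genes had a share that did not rise with the groups. Tmem161a had 76.7% and 76.4% at 1 h, 86.1% and 90.7% at 2 h and 61% and 66.2% at 12 h, and 7 genes were over 50% in all 6 libraries. In 114 genes (1.02%) both 12 h libraries lay at or below both 1 h libraries, and 89 of these (78.1%) had an RNA-seq level under 1 TPM, against 1997 of all genes (17.8%). No converted read was seen in at least 1 library for 138 genes, which at 100 reads allows a share of up to 3% (3 reads, for counting error only).

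The share fell with the level of the gene among expressed genes. Over the 9224 genes with at least 1 TPM in RNA-seq of the 12 h DMSO group, the Spearman correlation of TPM and share across genes was -0.34 and -0.334 in the 1 h libraries, -0.237 and -0.261 at 2 h and -0.264 and -0.255 at 12 h. Over the 3410 of them without overlap or multimapping it was -0.33 to -0.358. Below that level the order turned, so that of 10 equal bins of genes by TPM the lowest had a median share of 3.51% in the first 1 h library, bin 3 had 9.75% and the highest 3.36%. Longer intervals had higher shares, from a median of 3.09% in the shortest of 10 bins to 10.7% in the longest in the first 1 h library. At 2 h and 12 h the longest bin fell back below bin 9, with 14.7% after 16.6% in the first 2 h library and 22.3% after 22.7% in the first 12 h library. The Spearman correlation of length and share was 0.221 to 0.398. The intervals hold introns, and the number of Ts per read also went with the share, at 0.297 to 0.368, and less with conversions per T, at 0.148 to 0.213. Genes are not independent replicates, and the points of 1 library share its depth.

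**Figure D4:**
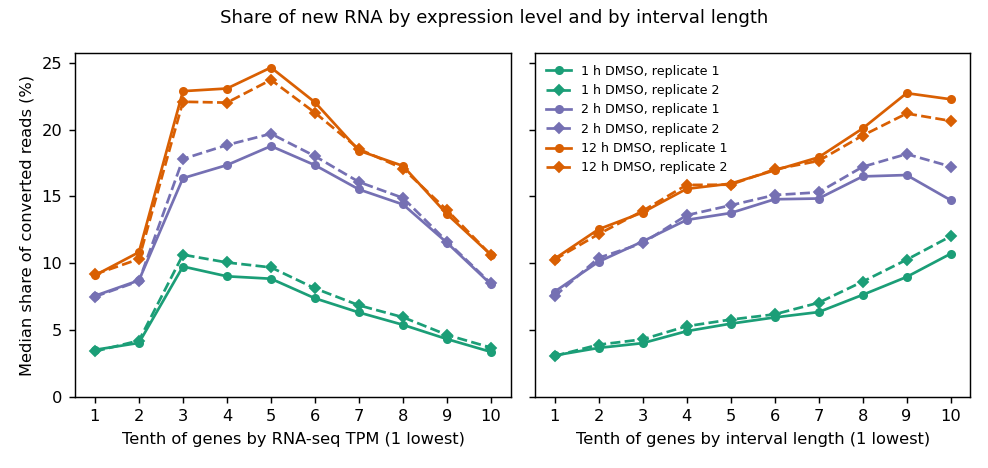
Median share of converted reads (y axis, percent) of genes in 10 equal bins by RNA-seq TPM (left) and by interval length (right), with 1 line per DMSO library. In the first 1 h library the median goes from 3.51% in the lowest bin by TPM to 9.75% in bin 3 and 3.36% in the highest, and from 3.09% to 10.7% from the shortest to the longest intervals.

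Groups were then compared by the difference in relative share, which asks whether a gene moved up or down against the median gene. From 1 h to 2 h, 1636 genes (14.6%) moved up and 2112 (18.8%) down by edgeR. From 1 h to 12 h, 2154 (19.2%) moved up and 1648 (14.7%) down, and from 2 h to 12 h 1217 (10.8%) moved up and 597 (5.32%) down. The 3 comparisons share libraries. The split depends on the processing. With conversions per T in place of reads, 1602 genes moved up and 1791 down from 1 h to 12 h, and with a minimum of 20 reads 2174 moved up and 2013 down from 1 h to 2 h, so each of these splits turned. When the average read replaced the median gene, the counts became 3248 and 1195, 3223 and 1243, and 653 and 780, and the part moving up went from 43.6%, 56.7% and 67.1% of the calls to 73.1%, 72.2% and 45.6%, while the median of all genes shifted from -0.03, 0.08 and 0.10 to 0.26, 0.26 and -0.01. Single libraries moved these counts by more than 1.5 times. From 1 h to 2 h, 1048 genes moved up without 1 h replicate 2 and 1088 without 2 h replicate 1. From 1 h to 12 h, 1393 moved up without 1 h replicate 2 and 1369 without 12 h replicate 1, and without 12 h replicate 2 the counts were 1221 up and 1001 down. From 2 h to 12 h, they were 254 and 136 without 12 h replicate 1, 444 and 233 without 12 h replicate 2, 675 and 339 without 2 h replicate 1, and 747 and 386 without 2 h replicate 2.

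Host genes of small nucleolar RNAs, mitochondrially encoded genes, immediate early genes and ribosomal protein genes moved down from 1 h to 2 h and up from 2 h to 12 h, and their medians had these signs under both references. So did the medians of nuclear long noncoding RNAs, BMP and TGF-beta targets and feedback inhibitors of ERK signalling. These were -0.61, -0.47 and -0.34 from 1 h to 2 h, and 0.51, 0.54 and 0.37 from 2 h to 12 h. Fewer of their members were called. From 1 h to 2 h, 4 of 10, 5 of 9 and 4 of 12 members moved down and 0, 2 and 1 up. From 2 h to 12 h, 4, 6 and 2 members moved up and 0 down in each list. With the average read as reference, the median of the ERK inhibitors from 1 h to 2 h was close to no difference, at -0.058. For the host genes 12 of 14 moved down from 1 h to 2 h and 0 up (median difference -1.25), and 12 moved up from 2 h to 12 h and 0 down (0.66). For mitochondrially encoded genes 8 of 9 moved down (-0.97) and 8 moved up (0.88). For mt-Cytb these differences were -0.997 ± 0.0587 and 0.92 ± 0.0588 (SE, edgeR, adjusted p = 7.5e-10 and 2.32e-09). Of the 19 immediate early genes 14 moved down and 1 up (-0.73), and then 13 up and 0 down (0.61). Of the 83 ribosomal protein genes 67 moved down and 1 up (-0.72), and then 50 up and 1 down (0.51). The metallothionein Mt1, which binds zinc and other metals, had the same course, with 7.18% and 6.97%, then 6.37% and 6.81%, then 17.6% and 16.5%, and a difference of -1.40 ± 0.0742 (SE, edgeR, adjusted p = 2.23e-10) from 1 h to 2 h. Its 2 h libraries thus lay below its 1 h libraries, against 86.7% of genes where they lay above. Total reads of Mt1 were 1334 and 1008 CPM at 1 h, 3270 and 1953 at 2 h and 2112 and 2381 at 12 h, and the part of this level in the share was not tested.

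**Figure D5:**
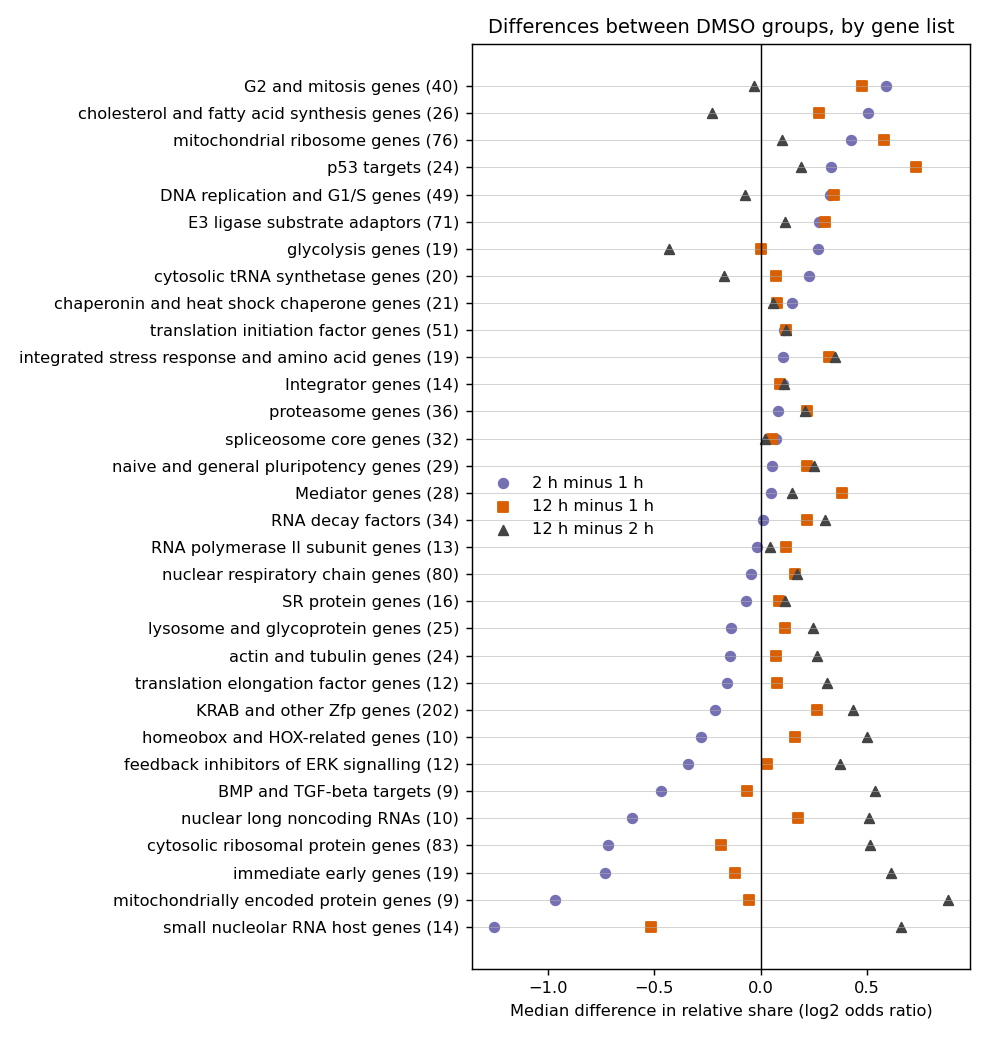
Median difference in relative share between DMSO groups over the members of each list (x axis, log2 odds ratio, 0 for no difference against the median gene), with the number of members in brackets. Host genes of small nucleolar RNAs are at -1.25 from 1 h to 2 h and at 0.66 from 2 h to 12 h, and G2 and mitosis genes at 0.59 and -0.03. Both lists keep these signs with the average read as reference, as not all lists near 0 do. For G2 and mitosis genes that reference moves both medians further in the same direction, so their sign could not have turned.

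Cell division genes moved the other way. Of 40 genes of G2 and mitosis, 25 moved up from 1 h to 2 h and 0 down (median 0.59), and 27 up and 1 down from 1 h to 12 h (0.48). Among 49 DNA replication and S phase entry genes, 21 moved up and 6 down from 1 h to 2 h (0.33). Rrm2, a subunit of ribonucleotide reductase (chr12:24758240-24764145), had 5.69% and 5.87% at 1 h, 24% and 22.2% at 2 h and 25.9% and 26.3% at 12 h, a difference of 1.01 ± 0.0925 (SE, edgeR, adjusted p = 3.18e-07) from 1 h to 2 h. Birc5, which encodes survivin of the chromosomal passenger complex, had 2.54% and 2.43%, then 12.8% and 14%, then 13.4% and 14.2%. Esco2, the acetyltransferase of cohesin, had 5.12% and 6.44%, then 27.8% and 32.4%, then 30.6% and 32.7%. In these 3 genes the libraries of the 2 h and 12 h groups lay close to each other and far above those of the 1 h group.

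Mitochondrial ribosome genes moved up early too, 39 of 76 up and 4 down from 1 h to 2 h (median 0.43) and 48 up and 5 down from 1 h to 12 h (0.58). Genes of cholesterol and fatty acid synthesis moved up from 1 h to 2 h, 12 of 26 up and 2 down (0.51). Set against that of all genes, the median relative share of this list was -0.09 at 1 h and 0.65 at 2 h. Without overlapping genes it was -0.16 and 0.10, so the 2 h value depends on that filter. Pmvk, phosphomevalonate kinase of the sterol pathway, had 1.01% and 1.66% at 1 h, 7.08% and 9.05% at 2 h and 7.78% and 8.81% at 12 h. Targets of p53 moved up from 1 h to 12 h, 14 of 24 up and 1 down (0.73). Glycolysis genes moved down from 2 h to 12 h, 11 of 19 down and 1 up (-0.43). The median differences between groups in this paragraph kept their sign when the average read was the reference. That change of reference moved each of them further in the same direction, so their sign could not have turned.

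Some single genes differed between groups more than their lists. Zfp57, a KRAB protein that maintains imprints, had 4.52% and 4.86% at 1 h, 23.9% and 23.4% at 2 h and 25% and 27.4% at 12 h, a difference of 1.37 ± 0.118 (SE, edgeR, adjusted p = 1.36e-07) from 1 h to 2 h. Skil, an inhibitor of SMAD signalling, had 10.1% and 12.1%, then 42.5% and 41.5%, then 56.8% and 56.4%. Hspa8, the constitutive HSP70 chaperone, had 7.67% and 7.79%, then 19.4% and 19.4%, then 33.2% and 33.3%, a difference of 0.98 ± 0.0758 (SE, edgeR, adjusted p = 3.27e-08) from 1 h to 12 h. Dnmt3a, a DNA methyltransferase, went up and down, with 12.3% and 13.1%, then 27.7% and 29.6%, then 15.6% and 14.8%, and from 2 h to 12 h the difference was -1.48 ± 0.151 (SE, edgeR, adjusted p = 2.52e-06). Farsa, a subunit of phenylalanine tRNA synthetase, did likewise, with 6.75% and 6.94%, then 18.1% and 19.5%, then 10% and 10.9%, and up to 20.6% of its reads were multimapped.

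In the 8 libraries of the same line treated with the degrader dTAG-13, which enter no test here, the same lists gave the following levels. The median of all 11221 genes was 5.56% and 5.19% at 1 h, 11.7% and 12.1% at 2 h, 10.9% and 11.7% at 4 h and 17.8% and 15.8% at 12 h. Immediate early genes had 23% and 25.5% at 1 h and 49% and 47.6% at 12 h there, and nuclear respiratory chain genes 1.91% and 1.73% at 1 h and 6.84% and 6.1% at 12 h.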

How the data were processed

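Per the file headers, the authors' SLAM-seq tables were made with slamdunk 0.4.3 and give read counts, converted read counts and conversions per gene interval. The intervals are whole gene bodies and the build is mm39, per the submitters' processing notes. Labelling time, conversion threshold and strand handling are not given in the sources used here. The deposited TPM of 2 RNA-seq libraries of the 12 h DMSO group served as gene level, and their making follows the submitters' notes naming RSEM 1.3.1. Interval lengths were used as deposited.

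Computed here were each gene's share and its relative share. For the model in edgeR 4.0.16 (R 4.3.3), each library gave a converted and an unconverted column, with the odds of the median gene set to 1. Groups were tested with glmTreat against 1.5-fold odds, and differences between groups with the quasi-likelihood test, all with Benjamini-Hochberg adjustment over 11221 genes and a threshold of 0.05. The code was tested on simulated data. DESeq2 1.42.0, other read minimums, scalings, margins, gene filters and left-out libraries were alternatives. Replicates differed beyond sampling noise (chi-square per degree of freedom 1.82 to 2.25).

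Named genes are the 15 highest and 15 lowest by mean relative share among genes called in the same direction in all 3 groups. Further ones are the 2 highest and 2 lowest of each list with 3 or more members, and all GABP genes. Also named are the 6 most significant without overlap between libraries per contrast and direction. The last are the 5 per direction whose ranks by share and by conversions per T differ most. Predicted genes and genes without a symbol were left out. Some genes that this rule names are not reported here. A few genes outside this rule are named as partners or after their values were seen. The members and the 40 lists were chosen with earlier results of these data known.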

Additional observations from a re-analysis of the deposited data

Results flagged for a closer look

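Itga8, an integrin subunit, differed between groups in direction. It was above the median gene at 1 h (relative share 1.26, edgeR, adjusted p = 4.49e-07) and below it at 12 h (-0.77, adjusted p = 0.0295), a difference of -2.03 ± 0.146 (SE, edgeR, adjusted p = 1.66e-08). Its shares were 12% and 15.2% at 1 h, 9.92% and 11% at 2 h and 11% and 9.87% at 12 h, so they differed little while those of most genes were higher in the later groups. Its RNA-seq level was 0.20 and 0.09 TPM, with 1310 to 4567 reads per library, and the part of this in the result was not tested.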

How the results depend on the processing

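Of 198 counts of genes recomputed under the alternatives, 151 stayed within 1.5 times the reported count and 47 did not. With at least 300 reads, genes above and below were 1975 and 1858 at 1 h and 2035 and 1868 at 12 h, and 1833 were below at 2 h. With a 2-fold margin they were 1790 and 1915, 1347 and 1851, and 2056 and 1903. Without overlapping genes they were 1139 and 1155, 1053 and 1097, and 1230 and 1169, where fewer genes were tested. At 2 h, 4249 were above with no margin and 4002 with the average read as reference.

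For the differences between groups, leaving out overlapping genes gave 605 up and 748 down (1 h to 2 h), 797 and 491 (1 h to 12 h), and 487 and 191 (2 h to 12 h). The average read gave 3248 up and 1195 down from 1 h to 2 h, and 653 up from 2 h to 12 h. Conversions per T gave 561 up from 2 h to 12 h. DESeq2 gave 1048 and 1397 up in the first and second comparison, and 674 up and 287 down in the last. Leaving out each library in turn gave 1048 to 1451 up and 1492 to 1940 down, 1221 to 2185 up and 1001 to 1680 down, and 254 to 1425 up and 136 to 711 down. Except where fewer genes or libraries entered, the cause was not tested.

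Replicate numbers did not pair the libraries (correlations 0.062, -0.0183 and -0.0257), and a replicate block gave 1597 and 2078, 2118 and 1639, and 1159 and 598.

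Of 10175 recomputed values of named genes, 9792 kept direction and call, and 12 reversed, all with conversions per T in place of reads. Their values then were 1.05 at 2 h for Cdh4, 0.20 and 0.29 at 2 h and 12 h for Usp32, -0.0699 at 2 h for Med15, 0.56 at 2 h for Sorcs2, -0.0454 and -1.08 at 1 h and 12 h for Chl1, -0.0467 at 12 h for mt-Co1, 0.10 at 12 h for Efcc1, and 2.26, 0.25 and 1.08 in the 3 groups for Mir5121. The cause was not tested.

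Of 390 recomputed list medians, 277 moved by at least the standard deviation between the replicate medians of the group, and 113 moved by less. Few list medians changed sign under the alternatives. These were 5 with conversions per T and 4 without genes that have a deeper opposite-strand partner. A further 1 changed without multimapped genes and 6 without overlapping genes. The ribosomal protein median at 1 h went from -0.56 to -0.10 with conversions per T, and the cholesterol median at 12 h from 0.22 to -0.36 without overlapping genes. The pluripotency median at 2 h went from 1.05 to 0.40 and that of p53 targets at 1 h from 0.79 to 0.33 without overlapping genes, and the glycolysis median at 1 h from -1.69 to -0.75 without multimapped genes. At the minimum of 100 reads, low shares rest on few converted reads.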

Other observations

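Lists with few members held further genes of high share. Znrf3, a Wnt target that removes Wnt receptors from the cell surface, had 28.6% and 31.9% at 1 h, 28.6% and 31.8% at 2 h and 53.9% and 56.1% at 12 h. Nr1d2, a repressor of the circadian clock, had 16.9% and 21.3%, then 31.9% and 22.5%, then 47.7% and 42.9%. Sox11, a transcription factor in the list of formative and primed pluripotency genes, had 19.9% and 19.1%, then 36.8% and 36.7%, then 51.4% and 54.2%. Members were few in these lists, with 6 of 17 Wnt targets, 4 of 13 clock genes and 7 of 15 formative and primed pluripotency genes. They were also few among homeobox genes, 10 of 84, and replication-dependent histone genes, 4 of 70. Of the 12 genes in the wider feeder fibroblast list 1 was a member, of 20 lineage markers 1, and of 10 genes of 2-cell-like cells 0.

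Genes of the integrated stress response and amino acid supply lay on both sides of the median gene, with 6, 6 and 6 of 19 above and 6, 7 and 5 below. Slc38a2, an amino acid transporter, had 23.6% and 26.2% at 1 h, 40.5% and 41.9% at 2 h and 59.4% and 57.7% at 12 h. Phgdh, the first enzyme of serine synthesis, had 1.95% and 1.27%, then 5.28% and 3.09%, then 6.3% and 6.55%. Dnmt3b, a DNA methyltransferase, was highest in the 2 h libraries, with 2.57% and 3.67%, then 12.2% and 11.5%, then 6.93% and 7.43%.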
